A study of Drosophila melanogaster with 8 samples.

Results

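miR-7-5p (mir-7-5p in the tables), the guide strand of the fly microRNA (miRNA) miR-7, was present at 145 to 409 RPM, the reads counted per 1000000 small RNA reads, in the 8 sequenced libraries of Drosophila S2 cells, and its 3' end differed between them. The 24 nt form made up 58.6 to 85.7% of its reads, and most of the remainder was spread over a ladder of shorter forms from 23 nt down to 18 nt. It is 1 of the 271 arms listed for 177 hairpins, and was taken by its arm name in the deposited tables, at the single start position given for it. No other arm lists the same seed.

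S2 cells are an established, blood-cell-like line derived from fly embryos. The labels describe 8 samples of 4 genotypes, 2 biological replicates of each: wild-type cells, cells in which nbr was knocked out, knockout cells that overexpress wild-type Nbr, and knockout cells that overexpress a catalytically inactive Nbr. All were passaged in the same medium, and neither the promoter of the transgenes nor the number of clones is stated in the sources used here. The study asked whether loss of Nbr alters the lengths of small RNAs, whether the wild-type protein restores them, and whether the inactive protein is enough. The deposited tables name their libraries by the numbers 81154 to 81161, and 0 of the 8 numbers occur in the labels. No library was therefore given a genotype, and the values below are per library, with no group mean, no SD and no test between genotypes. The nbr transcript is not measured by small RNA reads, so the knockout could not be checked here.

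Mature miRNAs are cut from a hairpin by Drosha and Dicer, and 1 strand of the resulting duplex, the guide, is loaded into Argonaute while the opposite strand is discarded. The seed near the 5' end chooses the targets, whereas the 3' end can be shortened after loading. Nibbler (Nbr), an exoribonuclease working from the 3' end, removes bases from a subset of loaded guides, and miR-34-5p is its best-known fly substrate. miR-7 itself is conserved between flies and humans. In the fly it represses the transcriptional repressor Yan during photoreceptor differentiation and several Notch target genes of the E(spl) and Bearded families.

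All libraries together held 46991 reads of miR-7-5p. Each library held 17145872 to 32958242 small RNA reads. For a length with no read, 3 reads were taken as an approximate 95% upper limit, which corresponds to 0.0910 to 0.175 RPM. miR-7-5p was counted on 3858 to 9840 reads per library, or 0.0379 to 0.0923% of the miRNA reads. By abundance it stood between rank 46 and rank 63 of 262 mature arms. Intervals below are 95% Wilson intervals, and SEs are counting errors of a mean length. Both cover counting error only, since amplified reads are not independent molecules.

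The hairpin mir-7 lies on chromosome arm 2R, 20606067 to 20606154 (dm6, plus strand, 88 nt). It sits in an intron of HnRNP-K, which codes for an RNA-binding protein and is transcribed from the same strand, in 5 of the 6 annotated transcripts of that gene. The annotation (Ensembl release 115 for BDGP6) places the mature 5p miRNA at 20606081 to 20606103, a length of 23 nt. All listed reads start at position 15 of the hairpin, which is the same first base. A 24 nt read, the most common form in each of the 8 libraries, would therefore end at 20606104, 1 base beyond the annotated 3' end, if its last base comes from the genome. The tables give lengths but no bases, so added and genome-encoded 3' bases could not be told apart. Of 89 arms whose start matched an annotated mature start, 70 had a main length equal to the annotated one and 11, among them miR-7-5p, were longer by 1 nt. The opposite arm miR-7-3p is annotated at 20606121 to 20606142 with 22 nt, which was also its main length.

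The share of 24 nt reads was 67.4% in library 81154 (interval 66.0 to 68.9%) and 69.2% in 81155 (67.7 to 70.6%). It was 84.9% in 81156 (83.9 to 85.9%) and 85.7% in 81157 (84.6 to 86.8%). In 81158 it was 59.3% (58.4 to 60.3%) and in 81159 it was 58.6% (57.5 to 59.8%). Libraries 81160 and 81161 had 85.1% (84.3 to 85.9%) and 85.3% (84.3 to 86.2%). The 4 libraries 81156, 81157, 81160 and 81161 thus held the highest shares, with intervals that overlap each other, and 81158 and 81159 the lowest. Libraries 81154 and 81155 lay between, and their intervals reached neither the highest nor the lowest values.

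The 23 nt form, which matches the annotated length, was the second most common in every library. Its share was 19.7% in 81154, 18.8% in 81155, 10.3% in 81156 and 9.94% in 81157. In 81158, 81159, 81160 and 81161 it was 20.8%, 21.6%, 10.5% and 10.7%. Libraries 81156, 81157, 81160 and 81161 were again alike and low, and the other 4 lay between 18.8 and 21.6%.

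The shorter forms set the libraries further apart in fold terms, though not in percentage points. Highest over lowest share was 2.17-fold at 23 nt, 5.74-fold at 22 nt and 18.8-fold at 21 nt. The ranges were 11.6, 8.60 and 6.49 points in the same order. For 22 nt reads the share was 7.20% in 81154 and 6.77% in 81155, 9.74% in 81158 and 10.4% in 81159, and 1.81 to 2.60% in the other 4 libraries. For 21 nt reads it was 2.94% and 2.88% in 81154 and 81155, 6.86% and 6.50% in 81158 and 81159, and 0.365 to 0.570% in the others. The 21 nt intervals of 81158 (6.38 to 7.38%) and 81154 do not overlap. Reads of 20 nt or shorter came to 2.27% at most, in 81158. Longer forms were rare throughout. Reads of 25 nt or longer made up 0.836% in 81159 to 1.92% in 81160, most of them of 25 nt.

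**Figure D1:**
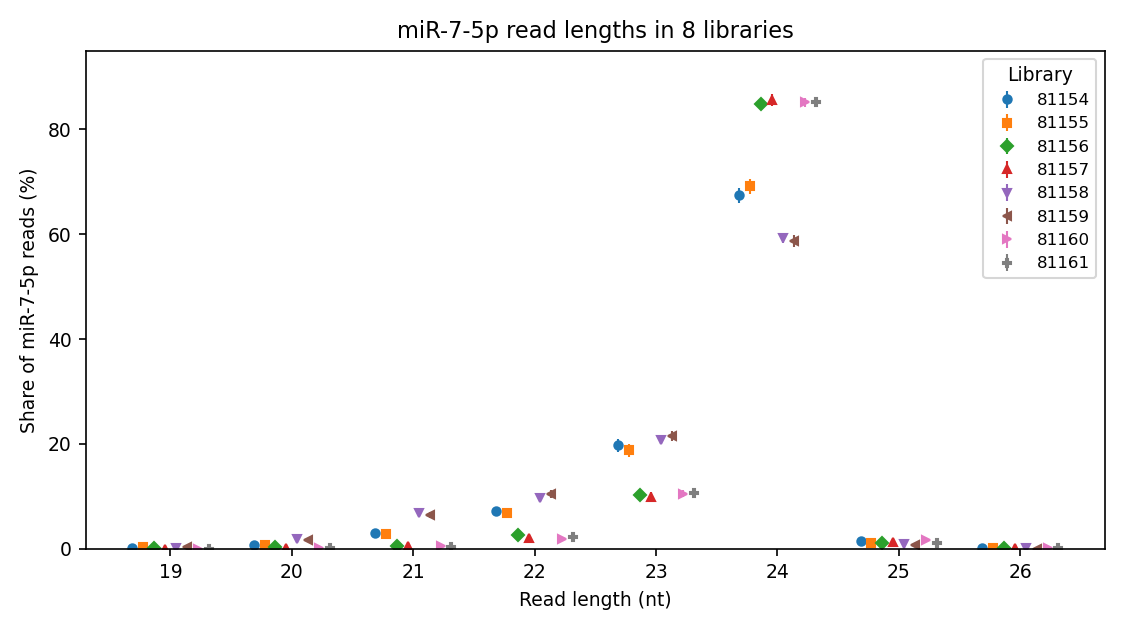
Share of miR-7-5p reads (percent, vertical axis) at each read length from 19 to 26 nt (horizontal axis), 1 symbol per library with its 95% Wilson interval. At 24 nt libraries 81156, 81157, 81160 and 81161 sit between 84.9 and 85.7%, 81154 and 81155 at 67.4 and 69.2%, and 81158 and 81159 at 59.3 and 58.6%; from 23 nt down the first 4 are the lowest.

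The mean length of miR-7-5p followed from these shares. It was 23.54 nt (SE 0.0138) in 81154, 23.55 nt (SE 0.0141) in 81155, 23.82 nt (SE 0.00833) in 81156 and 23.85 nt (SE 0.00831) in 81157. It was 23.31 nt (SE 0.0108) in 81158, 23.30 nt (SE 0.0124) in 81159, 23.86 nt (SE 0.00584) in 81160 and 23.84 nt (SE 0.00699) in 81161. Highest minus lowest came to 0.555 nt. Among the 100 arms that averaged 10 RPM or more and were read in all libraries, 12 arms (12.0%) reached a range of 0.5 nt, and miR-7-5p ranked 10 of 100. Ranked by how widely the share of reads below the main length varied, it stood at 7, with 12.8% of its reads shorter than 24 nt in 81157 and 40.5% in 81159.

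Reads short by exactly 1 base were only part of the reads below 24 nt. Between 81157 and 81159, the libraries with the highest and lowest 24 nt shares, the 24 nt share differed by 27.1 percentage points. The 23 nt form was higher by 11.6 points in 81159, the 22 nt form by 8.27, the 21 nt form by 6.02 and the 20 nt form by 1.49. Expressed as parts of the 24 nt difference, these are 43.0%, 30.6%, 22.2% and 5.53%. These libraries were picked for their extreme values, so the figures describe them and test nothing. Among reads shorter than 24 nt, the part that was short by exactly 1 base ran from 52.4% in 81158 to 81.1% in 81160.

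A stepwise view gives, for each length, how many of the reads at or below it were shorter still. It describes the lengths only, and whether shorter reads arose from longer ones was not tested. Of the reads at or below 24 nt, the part at or below 23 nt was 40.1 and 40.9% in 81158 and 81159, 31.4 and 29.9% in 81154 and 81155, and 13.0 to 14.1% in the remaining libraries. Of the reads at or below 23 nt, the part at or below 22 nt was 47.6 and 46.8% in 81158 and 81159, 36.2 and 36.5% in 81154 and 81155, and 18.9 to 26.4% in the remaining libraries. The 4 libraries with the larger first step were thus also those with the larger second step.

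At the third step, from 22 to 21 nt, the fraction was 48.4% (interval 46.1 to 50.7%) in 81158 and 45.0% in 81159, against 35.5% (31.3 to 40.0%) and 37.4% in 81154 and 81155. In the other 4 libraries it was 21.8 to 29.3%, measured on only 112 to 189 reads. The fourth step, from 21 to 20 nt, no longer followed this order. It was 24.8% in 81158 and 23.8% in 81159, among the lowest values, and 47.2% in 81156, where it rested on 53 reads with an interval of 34.4 to 60.3%. In each library the counts fell at every step from 24 to 23, 22, 21 and 20 nt. The same held in every library for 39 of the 100 arms (39.0%), so a falling ladder is common among them. Arms with a main length below 22 nt could not be counted, because lengths start at 18 nt and leave fewer than 4 steps.

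**Figure D2:**
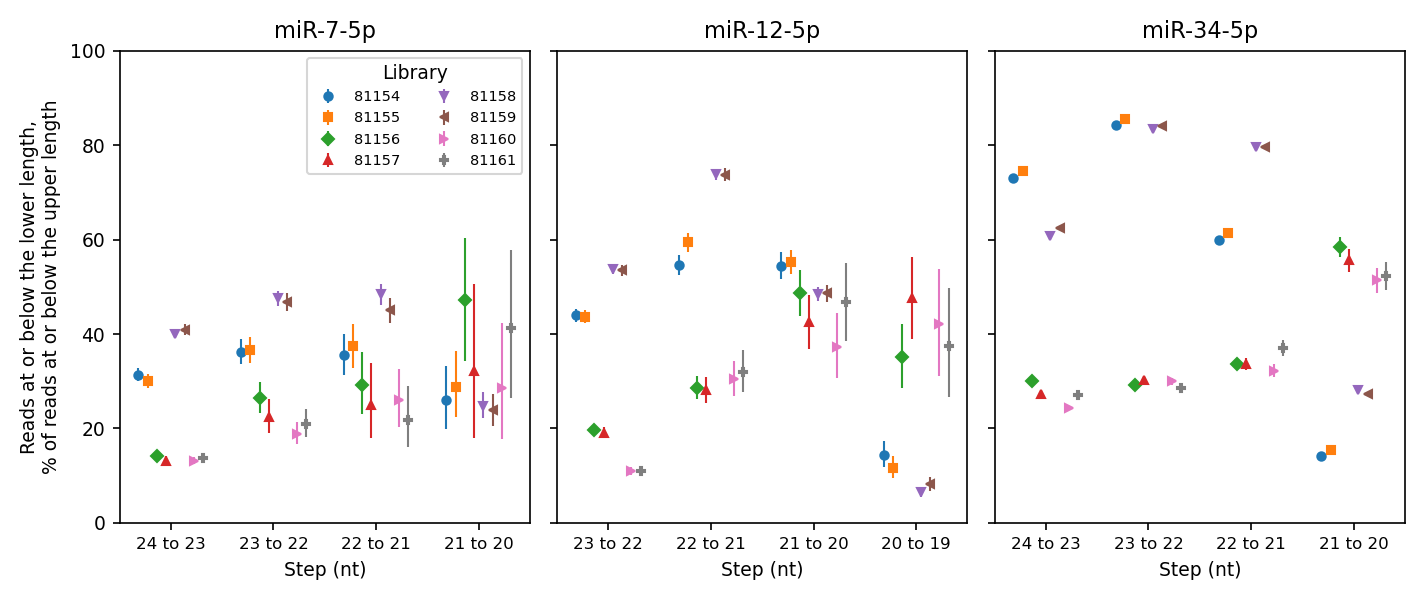
Length steps of miR-7-5p, miR-12-5p and miR-34-5p, for 4 steps from the arm's main length (horizontal axis). The vertical axis gives reads at or below the lower length as a percentage of reads at or below the upper length. Each library has 1 symbol with its 95% Wilson interval. For miR-7-5p the first step is highest in 81158 and 81159 (40.1 and 40.9%), whereas for miR-34-5p it is highest in 81154 and 81155 (73.1 and 74.6%), and its second step is 83.5 to 85.5% in 4 libraries.

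miR-34-5p and miR-12-5p show how other guides with shorter forms differ from this ladder. miR-34-5p also has 24 nt as its main length over the libraries, but its 24 nt share was 25.9% in 81154, 24.6% in 81155, 36.1% in 81158 and 34.6% in 81159, and 61.8 to 63.2% in the other 4. In the first 4, 21 nt was its most common shorter length, and in 81154 and 81155 the 21 nt form exceeded the 24 nt form. The 21 nt form was 30.5% and 32.0% of its reads in 81154 and 81155 and 26.7% and 28.1% in 81158 and 81159, where 23 nt reads took only 11.1%, 10.5%, 9.20% and 9.14%. In 81156, 81157, 81160 and 81161 its 21 nt form was at 0.958 to 1.16%. In 81154, 81155, 81158 and 81159, 83.5 to 85.5% of miR-34-5p reads at or below 23 nt were at or below 22 nt, while the values for miR-7-5p were 36.2 to 47.6%.

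The order of the libraries differed between these arms. The mean length of miR-34-5p was lowest in 81155 (22.24 nt) and 81154 (22.33 nt), followed by 81159 (22.51 nt) and 81158 (22.57 nt). For miR-7-5p it was 81159 and 81158 that had the shortest reads, at 23.30 and 23.31 nt against 23.54 and 23.55 nt in 81154 and 81155. miR-12-5p, a 23 nt guide, had its lowest mean lengths in 81158 (21.88 nt) and 81159 (21.89 nt), as miR-7-5p did, and 22.19 and 22.16 nt in 81154 and 81155. Its range was 0.994 nt, and its shorter reads spread over 20 to 22 nt, with 20.3% of all reads at 21 nt in 81158. With no genotype attached, whether these orders differ beyond the spread of replicates was not tested.

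The arms whose length profile was most like that of miR-7-5p were found from the root mean square difference of mean lengths over the 8 libraries, each arm centred on its own median. The 5 nearest were miR-263a-5p (0.0582 nt), miR-1002-5p (0.0716 nt), miR-13a-3p (0.0765 nt), miR-11-3p (0.0824 nt) and miR-8-3p (0.108 nt). The counting SE in a single library reached 0.0483 nt for miR-263a-5p, counted on 364 to 2467 reads, and 0.0520 nt for miR-1002-5p. The order among the nearest arms is therefore not firm. miR-263a-5p protects sensory bristle cells from cell death, and miR-8-3p promotes body growth. All of the 5 had their lowest mean length in 81158 or 81159 and values above their median in 81156, 81157, 81160 and 81161. They were picked for likeness in these same values, so this shared order follows from the choice and is no separate result. Their abundance ranged from 33.8 RPM (miR-1002-5p) to 15337 RPM (miR-8-3p) in the mean over libraries, against 259 RPM for miR-7-5p.

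Within this likeness, the arms differed in how the shorter reads were distributed. miR-11-3p, which carries a K-box seed, ran from 6.85% of reads below its main length of 22 nt in 81160 to 33.2% in 81158, and 67.8 to 72.7% of these were short by 1 nt in any library. In miR-7-5p the corresponding fraction varied more than in miR-11-3p, from 52.4 to 81.1%. It ran from 47.1 to 83.7% in miR-263a-5p and from 35.9 to 85.2% in miR-1002-5p, both counted on fewer reads. In miR-13a-3p it was 34.1 to 60.1% and in miR-8-3p 68.3 to 83.3%. A varying fraction was thus not particular to miR-7-5p. miR-1002-5p, counted on only 450 to 1125 reads, had 8.68% and 10.7% of its reads at 21 nt in 81158 and 81159, against 13.1% and 14.0% at 23 nt. Values for miR-13a-3p are uncertain, because paralogs of the miR-2 and miR-13 family can share reads.

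**Figure D3:**
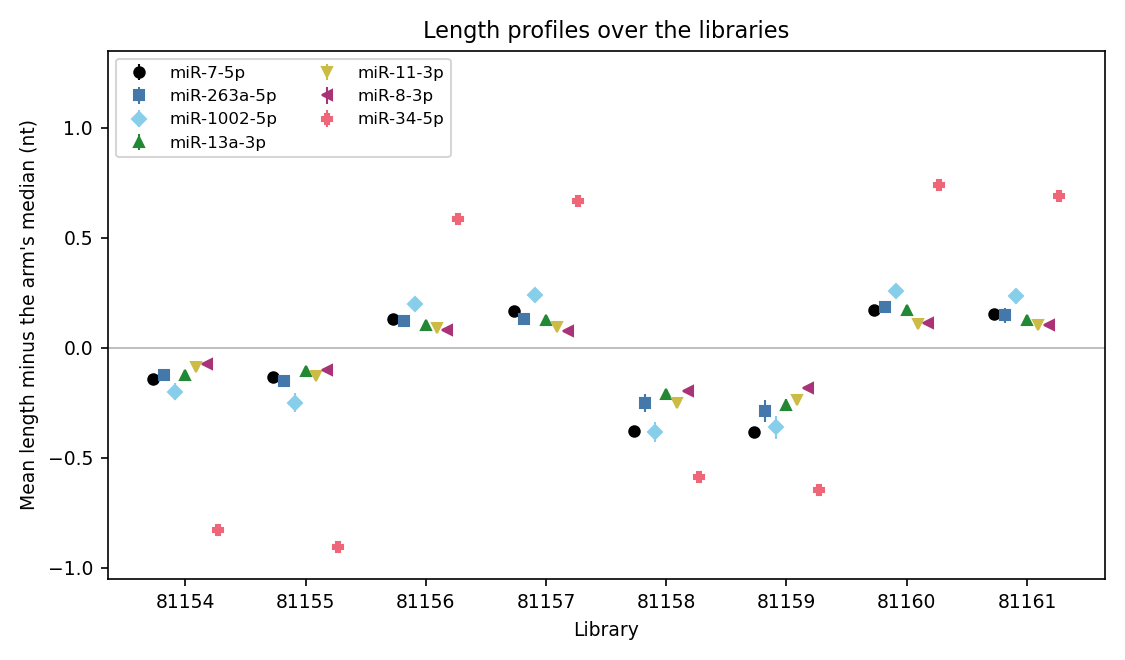
Mean length of each arm minus its own median over the libraries (nt, vertical axis) in each library (horizontal axis), for miR-7-5p, the 5 arms most like it and miR-34-5p; bars are counting SEs, mostly smaller than the symbols. miR-7-5p and the 5 arms, which were picked for likeness in these values, are lowest in 81158 and 81159, miR-34-5p in 81154 and 81155.

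The abundance of miR-7-5p varied in another order than its length. It was 169 RPM in 81154, 145 RPM in 81155, 149 RPM in 81156 and 161 RPM in 81157. It was 409 RPM in 81158, 373 RPM in 81159, 350 RPM in 81160 and 320 RPM in 81161. Libraries 81158 to 81161 were all above libraries 81154 to 81157. The highest exceeded the lowest by 2.83-fold, and 30 of the 100 arms (30.0%) spanned 2-fold or more. Thus 81158 and 81159, which had the lowest 24 nt shares, and 81160 and 81161, which were among the highest, were alike in holding much miR-7-5p.

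Separated by length, the 24 nt form was at 114, 100, 127 and 138 RPM in libraries 81154 to 81157 in turn and at 243, 219, 298 and 272 RPM in 81158 to 81161. Its span was 2.98-fold. Forms of 23 nt or shorter spanned 7.86-fold. They stood at 52.2 and 42.8 RPM in 81154 and 81155, 20.8 and 20.6 RPM in 81156 and 81157, 162 and 151 RPM in 81158 and 81159, and 45.3 and 43.3 RPM in 81160 and 81161. Reads of 23 nt or shorter were thus about as abundant in 81160 and 81161 as in 81155. They formed 12.9 and 13.6% of all miR-7-5p reads in the former, but 29.6% in the latter.

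**Figure D4:**
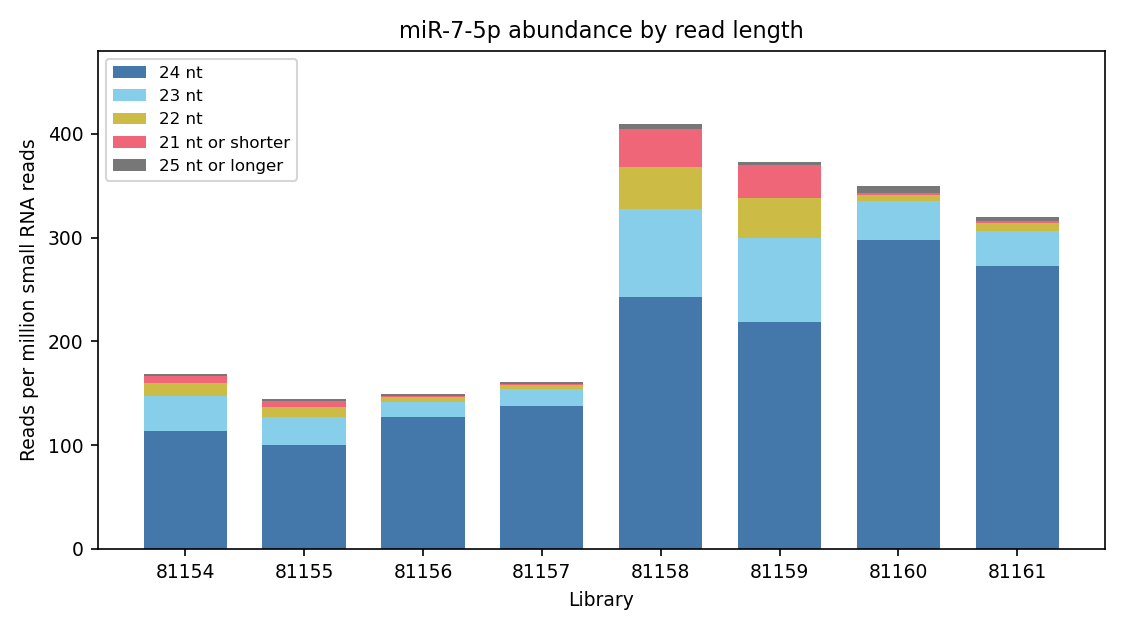
Abundance of miR-7-5p in RPM (vertical axis) in each library (horizontal axis), as stacked bars by read length. Libraries 81158 to 81161 reach 320 to 409 RPM and 81154 to 81157 reach 145 to 169 RPM; shorter forms take the largest part of the bars in 81158 and 81159.

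The opposite strand of the same hairpin, miR-7-3p, varied less in both measures. Its mean length stayed between 21.81 nt in 81155 and 21.89 nt in 81160, a range of 0.0798 nt where the counting SE was up to 0.0196 nt, and ranked 83 of 100 arms. The 22 nt form was 82.1 to 87.9% of its reads. The lowest 22 nt share was that of 81155 (interval 79.3 to 84.5%) and the highest that of 81158 (85.8 to 89.6%). This arm was counted on 689 to 1298 reads per library.

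miR-7-3p was also the less variable arm in level. It stood at 32.2 RPM in 81154, 31.2 in 81155, 39.4 in 81156 and 42.1 in 81157, and at 47.3, 50.2, 39.1 and 40.2 RPM in 81158 to 81161, a span of 1.61-fold. Libraries 81160 and 81161 held about as much of this arm as 81156, while their guide levels of 350 and 320 RPM were above the 149 RPM of 81156. The number of 5p reads per 3p read was 5.25 in 81154 (interval 4.86 to 5.67), 4.64 in 81155 (4.30 to 5.00), 3.79 in 81156 (3.56 to 4.03) and 3.83 in 81157 (3.57 to 4.10). It was 8.65 in 81158 (8.13 to 9.19), 7.43 in 81159 (6.94 to 7.94), 8.95 in 81160 (8.34 to 9.60) and 7.95 in 81161 (7.35 to 8.61). The 4 libraries with more miR-7-5p all had more guide per opposite strand than the others, and these intervals do not reach those of 81154 to 81157. Of 36 hairpins with both arms among the 100, 9 (25.0%) had a ratio that spanned 2-fold or more, and mir-7 ranked 7 with 2.36-fold. This ratio does not depend on the library's total of small RNA reads.

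**Figure D5:**
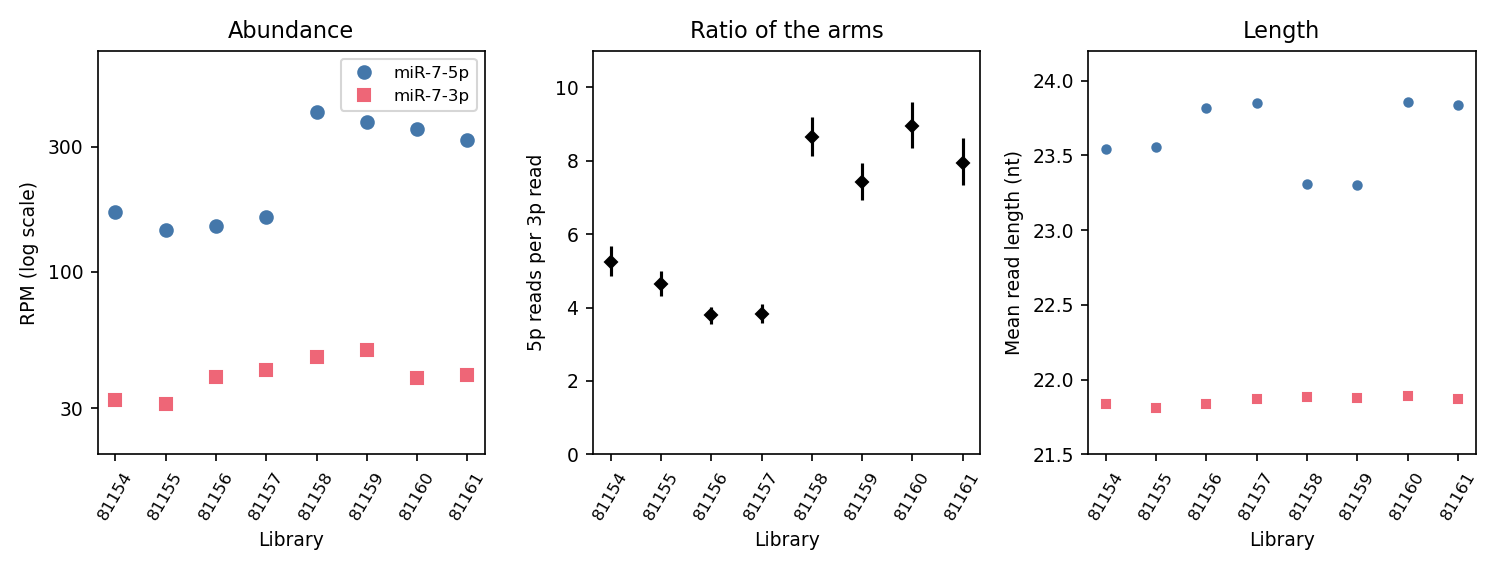
Both arms of the mir-7 hairpin by library: abundance in RPM on a log scale (left), 5p reads per 3p read with 95% Wilson intervals turned into ratios (middle), and mean read length in nt with counting SEs (right; the axis does not start at 0). The guide moves between 145 and 409 RPM and between 23.30 and 23.86 nt, the opposite arm between 31.2 and 50.2 RPM and between 21.81 and 21.89 nt.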

How the data were processed

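Small RNAs of 18 to 30 nt were sequenced from S2 cells after depletion of 2S rRNA, with adapters carrying 4 random nucleotides, per the labels' protocols. Reads were handled with Picard, Bowtie 1.2.2 and cutadapt 1.7.1 on genome build dm6, per the submitters' processing notes, which give no role or order. The treatment of mismatches and multiple hits is not stated there; an in-house pipeline handled each replicate on its own, per the series description. The authors deposited a signal per arm, start position, read length, read class and library, and a score that is their mean of it over libraries. Other values, namely whole-number totals of small RNA and miRNA reads per library, were also deposited by the authors. The unit, RPM, was worked out from the values: scaled by the deposited totals of small RNA reads over 1000000, 100% gave whole reads within 0.001 read, and lengths summed to the arm total for all 289 lines.

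Per mature arm, 1 line was kept at its main start (262 arms), and the 100 that averaged 10 RPM or more and had reads in each library served as background. As a check for a library deposited more than once, read counts were compared over 28 pairs. The lowest chi-square per degree of freedom was 41.8, so no pair agreed within counting noise, which says nothing of likeness beyond that. Named arms were miR-7-5p, miR-7-3p, the 5 nearest in length profile, miR-34-5p and miR-12-5p; others were named after their values were seen. Members, lists and limits were chosen with earlier results of these data known. The planned fits between genotypes were not run, because no library number matches a label. The calculation was tested on simulated reads, in which all reads of chosen arms were made 1 nt shorter in some libraries. Partial shifts, as seen in miR-7-5p, were not simulated. Alternatives were a window of 20 to 26 nt, omission of T-to-C reads, other scaling, other minimums, another measure of likeness, and leaving out each library. Values were computed with numpy 2.4.6 and pandas 2.3.3 under Python 3.11.15, intervals with scipy 1.17.1, and plots with matplotlib 3.10.9. Coordinates came from the Ensembl annotation of BDGP6.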

Additional observations from a re-analysis of the deposited data

Results flagged for a closer look

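The authors also list, under the mark tc, a subset of the reads that is read here as carrying T-to-C mismatches. The labels do not define the mark, and its lengths were not compared above. Over the 8 libraries 38 of 46991 miR-7-5p reads belonged to it. This is 0.0809% (95% Wilson interval 0.0589 to 0.111%), where the median of the 100 arms was 0.0905%. The class held 1 to 7 reads per library, and 32 of the 38 were 24 nt long, too few to compare its lengths between libraries. No group of libraries could be formed, so a search for outlying samples within groups or for differences between groups was not possible.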

How the results depend on the processing

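No paired analysis was possible because no library could be tied to a numbered sample, and the fits between genotypes with their alternatives were not run. The median mean length of 23.69 nt became 23.70 nt with reads of 20 to 26 nt only and stayed at 23.69 nt without T-to-C reads, and its range of 0.555 nt became 0.541 and 0.555 nt. The median 24 nt share of 77.0% (range 27.1 points) became 77.3 and 77.0%, and the median 23 nt share of 14.7% (range 11.6 points) became 14.8 and 14.7%. With 1 library left out the medians moved, since no library lies near them: 23.55 to 23.82 nt, 69.2 to 84.9% and 10.7 to 18.8%. The ranges were then 0.547 to 0.555 nt, 26.3 to 27.1 points and 10.9 to 11.6 points. The abundance span of 2.83-fold became 2.44-fold when scaled to miRNA reads and 2.53-fold with median-of-ratios scaling, and 2.58 to 2.83-fold with 1 library left out. The cause was not tested. The count of 12 arms with a range of 0.5 nt or more became 100 with no minimum, which adds arms with few reads, 8 at 100 RPM, and 10 to 12 with 1 library left out. The minimum also changes how many arms are compared, so these counts and the ranks below are out of different totals. At 100 RPM the total was 68 arms, the last being miR-11-5p at 103 RPM. The rank of miR-7-5p by range, 10, became 87, 7 and, over 20 to 26 nt, 11. By largest difference in place of root mean square, 4 of the 5 like arms were shared. Depth limits the lowest steps, which rest on as few as 28 reads.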

Other observations

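The values of miR-7-5p fell into separate sets, described here without a genotype. The 24 nt share was 58.6% in 81159 and 59.3% in 81158, then 67.4% in 81154 and 69.2% in 81155, and then 84.9% in 81156, 85.1% in 81160, 85.3% in 81161 and 85.7% in 81157. Abundance formed other sets: 145 RPM in 81155, 149 in 81156, 161 in 81157 and 169 in 81154, then 320 in 81161, 350 in 81160, 373 in 81159 and 409 in 81158. The sets of the 2 measures do not coincide.

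Arms with an abundance profile like that of miR-7-5p were looked up after its values were seen, by the root mean square difference of log2 RPM centred on each arm's median. The nearest were miR-279-5p (0.20), miR-996-3p (0.21) and miR-184-3p (0.26). They were picked for likeness in these same values, so a shared order of abundance follows from the choice and is no separate result. miR-996-3p, of the miR-279 family, had 2358 to 3030 RPM in 81154 to 81157 and 5089 to 6216 RPM in 81158 to 81161. miR-184-3p had 16176 to 18819 RPM in the former and 26208 to 29563 RPM in the latter. Their mean length varied by 0.688 nt (miR-279-5p, counted on 613 to 1565 reads), 0.181 nt (miR-996-3p) and 0.244 nt (miR-184-3p), against 0.555 nt for miR-7-5p. The root mean square difference from the length profile of miR-7-5p was 0.318, 0.159 and 0.156 nt in the same order.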
